A study of Mus musculus with 6 samples.

Results

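The genes described here are 40 genes of the NF-κB pathway, picked by name from a count table of 55367 gene names in primary mouse keratinocytes. They comprise 5 NF-κB subunits, 5 members of the IκB family, 9 kinases, 11 receptors, ligands and adaptors of TNF and Toll-like receptor signalling, 4 negative regulators and 6 other intracellular targets, with cytokines and chemokines other than *Tnf* left out. Primary keratinocytes are epidermal cells grown from skin without immortalization, here from pups of 2 days on a mixed C57BL/6 and 129/Sv background. All 6 cultures had the genotype Ppp1r13lflox/flox;Cre+ERT, in which a tamoxifen-inducible Cre can remove a floxed part of *Ppp1r13l*, the gene encoding iASPP. The replicate number in the sample titles was taken as the batch. By it each of 3 batches gave 1 culture with tamoxifen (iASPP-KO, n = 3) and 1 without (iASPP-WT, n = 3). The drug was added with the medium change 24 h after plating, and the cells were kept for 4 days. Tamoxifen was at 1 mM by the labels and 1 μM by the study's methods. The controls received no tamoxifen, so drug and deletion cannot be told apart. The Cre allele comes from a ubiquitously expressed locus and not from a keratinocyte promoter, so any other cell in the dish could recombine too. RNA was depleted of ribosomal RNA and sequenced as single reads of 42 nt.

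NF-κB is a family of dimeric transcription factors held in the cytoplasm by IκB proteins. Kinases of the IKK complex, switched on by TNF, interleukin-1 and Toll-like receptors, phosphorylate IκB for degradation and free the dimers, which bind κB sites in DNA. Among the genes that NF-κB switches on are its own inhibitors, such as IκBα and A20, and the level of such feedback transcripts is widely used as a readout of the pathway. In epidermis the pathway is known for its part in inflammation and in keratinocyte survival.

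*Ppp1r13l* itself was at 14.2, 17.7 and 5.90 CPM in iASPP-KO (batches 1, 2 and 3, the order kept for all genes) and at 32.6, 45.1 and 21.0 CPM in iASPP-WT. CPM is the read count of a gene after every library was brought to one common total by the TMM method. The log2 fold change, always iASPP-KO over iASPP-WT, was −1.45 with a standard error of 0.18, and the groups did not overlap. Its adjusted p, from edgeR's quasi-likelihood test with correction over all tested genes, was 0.00296, and values under 0.05 are called higher or lower here. Reads on exons outside the floxed part were still counted, and the source of the reads left in iASPP-KO was not tested. Libraries held 20202517 to 25157117 counts, and 3 counts correspond to 0.123 to 0.140 CPM, a floor that covers counting error only. The keratin genes *Krt5* and *Krt14*, which define basal keratinocytes, were at no less than 4529 CPM in every library. Batch 3 stood apart: 10 fibroblast markers summed to 542 CPM in its iASPP-KO culture and 781 CPM in its iASPP-WT culture, against 62.4 to 81.7 CPM in the other 4 libraries. Of these 10 markers 2 were called lower in iASPP-KO, *Col1a2* (log2 fold change −0.55, adjusted p = 0.0428) and *Col3a1* (−0.87, adjusted p = 0.0269), both lower within all 3 batches. The list did not move as one. *Pdgfra* had a positive log2 fold change that did not pass (0.81, adjusted p = 0.258), with 1.29, 1.60 and −0.42 within batches, and *Dcn* had −0.02. The fibroblast sum differed by −0.21, 0.14 and −0.53 on the log2 scale within batches 1, 2 and 3. Of 15 keratinocyte markers *Tgm1* was called higher (0.57, adjusted p = 0.0292) and *Krt10* lower (−1.31, adjusted p = 0.0330). Of 18 leukocyte markers, 8 could be tested and 1 passed (*Csf1r*, higher in iASPP-KO). Their sum was 68.0 to 93.3 CPM in iASPP-KO and 46.0 to 73.3 CPM in iASPP-WT, higher in iASPP-KO within each batch. The myeloid genes *Cd68* (8.94 to 42.4 CPM) and *Csf1r* (1.91 to 28.7 CPM) were present in every library. Batch 3 stood apart here too, with *Lyz2* at 59.0 and 49.5 CPM in its iASPP-KO and iASPP-WT cultures against 1.11 to 4.80 CPM elsewhere, and *Mrc1* at 4.24 and 2.45 CPM against 0 to 0.403 CPM. *Ptprc* was at 0 to 2.13 CPM, and *C1qc* and *Cd3e* were at 0 in all libraries. Melanocyte markers summed to 355 to 1090 CPM, and none of the 6 passed in edgeR (0 at an unadjusted p under 0.05). Of 5 endothelial markers, 2 could be tested and 0 were called. Their sum was low, at 6.05, 13.6 and 2.63 CPM in iASPP-KO and 2.48, 5.28 and 4.85 CPM in iASPP-WT. It differed by 1.29, 1.36 and −0.88 on the log2 scale within batches 1, 2 and 3.

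Of the 40 genes, 39 had enough reads to be tested. The transcripts called higher after tamoxifen came from 5 genes, *Tnfaip2*, *Ier3*, *Irf1*, *Nfkbia* and the kinase gene *Ikbke*. This is 5 of 39, while 2.17% of all 14916 tested genes were called higher. Not every target on the list passed in edgeR. *Tnfaip3*, which encodes A20, had a log2 fold change of 0.40 (adjusted p = 0.251) and *Icam1* one of 0.17 (adjusted p = 0.752). None of the 39 was called lower in edgeR or in DESeq2, against 1.95% of all tested genes. At an unadjusted p under 0.05 in edgeR, 11 of the 39 were higher and 0 lower. Over all 14916 tested genes, 1292 were higher and 1206 lower at that limit. The median log2 fold change was 0.15 over the tested members and 0.01 over all tested genes. In bulk RNA, fewer cells of a type and less RNA per cell cannot be told apart. Within all 3 batches 14 members were higher in iASPP-KO and 2 lower. Of all tested genes 19.5% were higher and 19.5% lower in all batches. The members were chosen with earlier results of these data known, so these comparisons are descriptions and no test of an excess.

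The change was uneven between roles. The median log2 fold change was −0.10 for the subunits and −0.07 for the kinases, with 0 of 5 and 1 of 9 genes called. It was 0.21 for receptors, ligands and adaptors (0 of 10 called) and 0.37 for the IκB family (1 of 5). Negative regulators had a median of 0.51 (0 of 4 called in edgeR, 3 at an unadjusted p under 0.05). The other targets had a median of 0.60 with 3 of 6 called. These medians are descriptions of small lists, and the difference between roles was not tested.

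**Figure D1:**
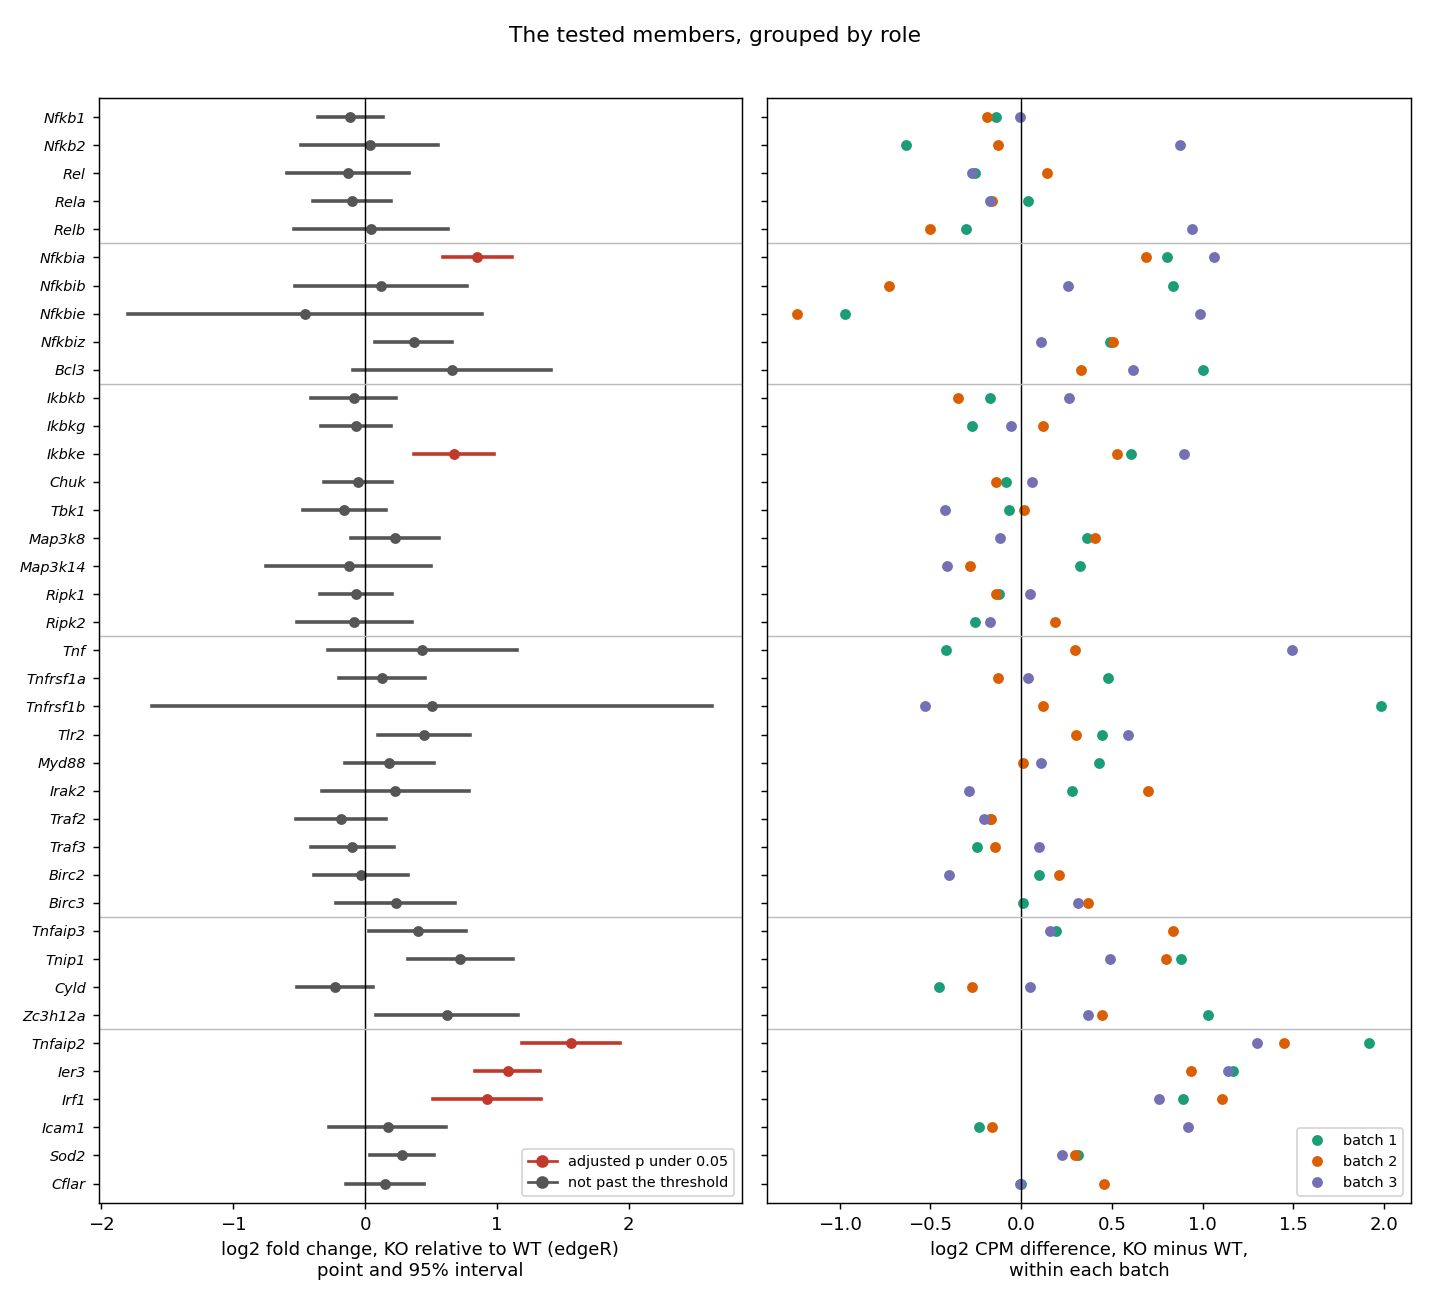
The left side gives the log2 fold change of each of the 39 tested genes, iASPP-KO relative to iASPP-WT, as a point with its 95% interval, and the right side the log2 CPM difference within each of 3 batches. Genes past the threshold are red. The 5 red genes lie between 0.68 and 1.56 with all batches above 0, whereas the subunits at the top lie near 0 on the left side. On the right side *Nfkb2* is at −0.63, −0.13 and 0.88 and *Relb* at −0.30, −0.50 and 0.94 in batches 1, 2 and 3.

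Stretches of promoter DNA are shown for the 5 called genes, of which 3 carry a match to the binding site that gives the pathway its name, and for *Tnip1* and *Rel*, which carry one and were not called. For 34 of the 40 genes RefSeq gives windows of 300 bases around a transcription start (250 before, 50 after; build GRCm38.p6). *Nfkb1*, *Map3k8*, *Ripk2*, *Ikbkb*, *Relb* and *Nfkbiz* have no window in the table used. The 10-base κB consensus was searched on both strands, with overlapping matches each counted. It occurred in 13 of 34 members (38.2%) and in 5.14% of 27025 genes with a window. It occurred in 3 of the 5 called genes and in 10 of 28 members tested and not called (35.7%). The members were picked by name for this pathway, which can itself raise their share, so these shares are descriptions. The AP1 motif TGANTCA, also searched on both strands, occurred in 5 of 34 members (14.7%) and in 8.97% of genes. Among the called genes only *Ikbke* had it, at bases −6 to 1 from the start. A match says that the letters are present, not that a factor was bound.

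The sequences run 5′ to 3′ on the strand of the gene, with κB matches in capitals, and leave out the exons the reads were counted on. They are therefore shorter than the windows searched: *Tnfaip2* is shown from base −250 to −193 (58 bases) and *Ikbke* from −193 to −44, so that the AP1 match of *Ikbke* lies outside its stretch. That neither gene had a κB match refers to the whole window. They lie at chr12:55492648-55492797 (minus strand, *Nfkbia*), chr17:35821534-35821683 (plus, *Ier3*), chr11:53769864-53770013 (plus, *Irf1*), chr11:54962941-54963090 (minus, *Tnip1*), chr11:23770971-23771120 (minus, *Rel*), chr12:111442411-111442468 (plus, *Tnfaip2*) and chr1:131279607-131279756 (minus, *Ikbke*). The match ended 20 bases before the start in *Nfkbia*, 83 in *Ier3* and 4 in *Irf1*. *Tnip1* held 3 overlapping matches within bases −58 to −47 and *Rel* 2 overlapping ones within −92 to −82.
Nfkbia: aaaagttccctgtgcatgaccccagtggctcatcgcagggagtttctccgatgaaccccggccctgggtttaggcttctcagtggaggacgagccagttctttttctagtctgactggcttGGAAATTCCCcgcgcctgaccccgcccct
Ier3: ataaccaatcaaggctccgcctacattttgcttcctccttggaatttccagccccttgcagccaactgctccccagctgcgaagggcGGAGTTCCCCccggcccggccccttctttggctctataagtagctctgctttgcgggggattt
Irf1: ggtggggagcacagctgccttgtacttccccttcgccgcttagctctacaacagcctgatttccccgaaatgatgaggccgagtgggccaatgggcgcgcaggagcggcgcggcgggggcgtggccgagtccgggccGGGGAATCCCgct
Tnip1: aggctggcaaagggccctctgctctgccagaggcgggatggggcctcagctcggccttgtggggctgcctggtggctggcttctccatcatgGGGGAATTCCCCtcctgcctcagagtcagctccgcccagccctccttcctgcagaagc
Rel: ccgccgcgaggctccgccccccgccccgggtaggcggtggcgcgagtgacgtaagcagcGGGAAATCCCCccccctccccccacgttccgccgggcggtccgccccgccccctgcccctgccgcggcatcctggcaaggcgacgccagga
Tnfaip2: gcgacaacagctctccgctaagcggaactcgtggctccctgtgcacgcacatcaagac
Ikbke: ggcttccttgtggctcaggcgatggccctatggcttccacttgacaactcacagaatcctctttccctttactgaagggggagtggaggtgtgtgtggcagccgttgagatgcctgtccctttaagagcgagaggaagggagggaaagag

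**Figure D2:**
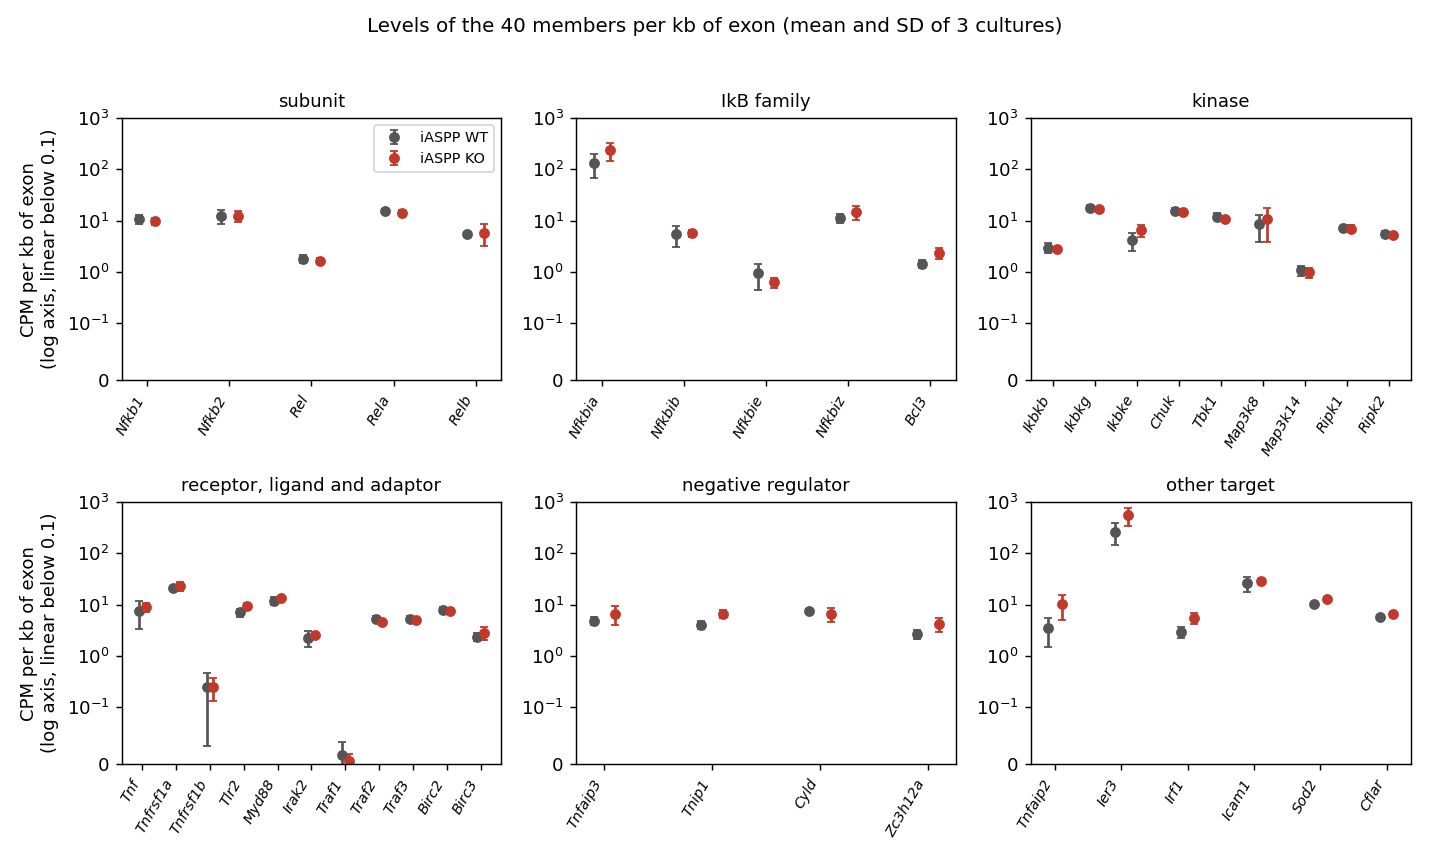
Level of each of the 40 genes as CPM per kb of exon on a log axis (linear below 0.1), as the mean and SD of 3 cultures in iASPP-WT (grey) and iASPP-KO (red), grouped by role. *Ier3* and *Nfkbia* lie far above the other genes in both groups, and *Traf1* lies near 0, where its error bars end.

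The transcripts of the factor itself did not pass the test. None of the 5 subunit genes passed the threshold in edgeR, and 0 had an unadjusted p under 0.05. *Rela*, which encodes the p65 subunit of the classical dimer, was at 47.9, 45.8 and 36.7 CPM in iASPP-KO and 46.8, 51.2 and 41.3 CPM in iASPP-WT, with a log2 fold change of −0.10 (95% interval −0.39 to 0.19). *Nfkb1*, which encodes p105 and its product p50, was at 138, 116 and 102 CPM in iASPP-KO and at 152, 132 and 102 CPM in iASPP-WT (−0.11, interval −0.36 to 0.14). The groups overlapped for both genes. *Rel*, which encodes c-Rel, was at 13.4, 13.1 and 10.5 CPM in iASPP-KO and 16.0, 11.8 and 12.7 CPM in iASPP-WT (−0.13, interval −0.59 to 0.33). These intervals leave room for small changes in either direction. Scaled by exon length, the order of the levels in iASPP-WT was *Rela* (15.1 ± 1.61 CPM per kb, SD, n = 3), *Nfkb2* (12.2 ± 3.71), *Nfkb1* (10.7 ± 2.08), *Relb* (5.39 ± 0.663) and *Rel* (1.81 ± 0.298). The SD ranges of *Rela* and *Nfkb2* overlapped, as did those of *Nfkb2* and *Nfkb1*, whereas those of *Nfkb1* and *Relb* and of *Relb* and *Rel* did not. The order was the same in iASPP-KO.

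Among the inhibitors, *Nfkbia* rose. It encodes IκBα, the main cytoplasmic inhibitor and a rapid feedback target. It was at 353, 532 and 247 CPM in iASPP-KO and 203, 330 and 118 CPM in iASPP-WT, higher in iASPP-KO by 0.80, 0.69 and 1.06 on the log2 scale within batches 1, 2 and 3. The CPM of the groups overlapped because batches differed in level, with batch 2 highest and batch 3 lowest in both groups. The log2 fold change was 0.85 (standard error 0.12, 1.80-fold, adjusted p = 0.00433). The gene lies at 12:55489410-55492647, and with 135 ± 66.2 CPM per kb in iASPP-WT its level per length was second among the members to *Ier3* (263 ± 121).

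The 4 other IκB genes did not pass. *Nfkbiz*, which encodes the nuclear co-regulator IκBζ, was at 76.9, 96.5 and 49.5 CPM in iASPP-KO and 54.8, 68.0 and 45.9 CPM in iASPP-WT (log2 fold change 0.37, standard error 0.13, adjusted p = 0.179). Every iASPP-KO culture was above its iASPP-WT partner, but by 0.11 in batch 3 against 0.49 and 0.50 in the others. Without batch 3 its adjusted p was 0.00577. *Bcl3*, a nuclear IκB protein that binds p50 and p52 dimers, was at 7.29, 5.42 and 4.54 CPM in iASPP-KO and 3.60, 4.30 and 2.93 CPM in iASPP-WT (0.66, standard error 0.34, adjusted p = 0.370). Its groups did not overlap, yet it rested on 66 to 164 counts per library. *Nfkbib*, which encodes IκBβ, was at 14.1, 10.5 and 12.2 CPM in iASPP-KO and at 7.86, 17.5 and 10.2 CPM in iASPP-WT (0.12, interval −0.53 to 0.77), with the iASPP-WT values spread around those of iASPP-KO.

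Of the kinases, *Ikbke* was the one that rose. It encodes IKKε, a kinase related to TBK1 that acts in innate immune signalling and is itself an inducible gene. It was at 64.0, 71.3 and 41.1 CPM in iASPP-KO and 42.0, 49.5 and 22.0 CPM in iASPP-WT. Each iASPP-KO culture exceeded its partner, by 0.61, 0.53 and 0.90 within batches 1, 2 and 3, while batch 3 was lowest in both groups so that the groups overlapped. The log2 fold change was 0.68 (standard error 0.14, 1.60-fold, adjusted p = 0.0237; gene at 1:131254343-131279606). The call was lost without batch 1 (adjusted p = 0.0748) and without batch 2 (0.0893), where the log2 fold change was 0.72 and 0.76.

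For the genes of the core IKK complex every interval included 0. *Chuk*, which encodes IKKα, was at 79.3, 77.7 and 71.3 CPM in iASPP-KO and 84.0, 85.5 and 68.5 CPM in iASPP-WT (log2 fold change −0.05, interval −0.31 to 0.20). *Ikbkg*, which encodes the scaffold NEMO, was at 135, 139 and 135 CPM in iASPP-KO and 163, 127 and 139.8 CPM in iASPP-WT (−0.07, interval −0.33 to 0.20). *Ikbkb*, which encodes IKKβ, was at 58.6, 48.5 and 51.5 CPM in iASPP-KO and 66.1, 61.7 and 42.9 CPM in iASPP-WT (−0.09, interval −0.41 to 0.24). The iASPP-WT values of all 3 genes reached above and below some of the iASPP-KO values. *Map3k14*, which encodes NIK, the kinase of the non-canonical branch, was low, at 7.87, 4.93 and 6.79 CPM in iASPP-KO and 6.27, 6.02 and 9.02 CPM in iASPP-WT (−0.12, interval −0.75 to 0.50). The 4 remaining kinases (*Tbk1*, *Map3k8*, *Ripk1* and *Ripk2*) had log2 fold changes from −0.16 to 0.23, none past the threshold in edgeR and none with an unadjusted p under 0.05.

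Receptors, ligands and adaptors gave no call. *Tnf* was at 13.0, 18.4 and 12.8 CPM in iASPP-KO and 17.4, 15.0 and 4.49 CPM in iASPP-WT (log2 fold change 0.43, interval −0.28 to 1.15, adjusted p = 0.579). The low iASPP-WT culture of batch 3 set it apart, with within-batch differences of −0.42, 0.30 and 1.49. *Tnfrsf1a*, which encodes the main TNF receptor of keratinocytes, was at 71.3, 55.3 and 50.6 CPM in iASPP-KO and 51.1, 60.6 and 49.3 CPM in iASPP-WT (0.13, interval −0.20 to 0.45). *Tlr2*, a receptor for bacterial lipopeptides, was at 25.1, 31.6 and 29.1 CPM in iASPP-KO and 18.4, 25.6 and 19.3 CPM in iASPP-WT. It was higher in iASPP-KO in 3 of 3 batches (0.45, standard error 0.16, unadjusted p = 0.0177 and adjusted p = 0.177 in edgeR), while 1 iASPP-WT culture lay above the lowest iASPP-KO culture. *Traf1*, an adaptor that NF-κB induces in lymphoid cells, was not tested, with 0, 0 and 4 counts in iASPP-KO and 8, 1 and 0 in iASPP-WT. *Tnfrsf1b*, the other TNF receptor, was at 0.0468 to 1.69 CPM, 1 to 38 counts per library. The 6 adaptors not named so far (*Myd88*, *Irak2*, *Traf2*, *Traf3*, *Birc2* and *Birc3*) had log2 fold changes from −0.18 to 0.23 and adjusted p from 0.629 to 0.956.

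None of the 4 negative regulators passed in edgeR, while 3 had an unadjusted p under 0.05 with higher values in iASPP-KO. *Tnip1* encodes ABIN1, an adaptor that binds A20 and ubiquitin chains. It was at 20.7, 28.4 and 21.8 CPM in iASPP-KO and 11.2, 16.3 and 15.6 CPM in iASPP-WT, and every iASPP-KO culture was above every iASPP-WT culture. Its log2 fold change of 0.72 (standard error 0.18) just missed the threshold (adjusted p = 0.0529), and it passed in 8 of 11 alternative analyses, among them DESeq2 and limma-voom. Members with groups that did not overlap and higher values in iASPP-KO numbered 4 of 39 (*Irf1*, *Tnip1*, *Sod2* and *Bcl3*), against 5.26% of all tested genes. *Tnfaip3* encodes the ubiquitin-editing enzyme A20. It was at 43.4, 69.8 and 31.2 CPM in iASPP-KO and 37.9, 39.0 and 28.0 CPM in iASPP-WT (0.40, standard error 0.16, adjusted p = 0.251). Batch 2 carried most of this difference (0.84, against 0.19 and 0.16), and without batch 3 the adjusted p was 0.0134. *Zc3h12a* encodes Regnase-1, a ribonuclease that degrades inflammatory mRNAs. It was at 15.3, 12.6 and 8.06 CPM in iASPP-KO and 7.44, 9.26 and 6.22 CPM in iASPP-WT (0.62, standard error 0.24, adjusted p = 0.225). Its batch 1 difference of 1.03 was the highest of the 3. *Cyld*, a deubiquitinase that restrains the pathway, was at 65.3, 71.6 and 109 CPM in iASPP-KO and 89.6, 86.5 and 105 CPM in iASPP-WT, with a negative log2 fold change that did not pass (−0.23, standard error 0.13, adjusted p = 0.440).

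The most marked changes lay among the other targets. *Tnfaip2*, a TNF-inducible gene whose product acts in membrane protrusions, was at 46.9, 79.0 and 27.1 CPM in iASPP-KO and 12.3, 28.9 and 10.9 CPM in iASPP-WT. The iASPP-KO culture of batch 3 fell just below the iASPP-WT culture of batch 2, and within batches the differences were 1.92, 1.45 and 1.30. The log2 fold change of 1.56 (standard error 0.17, 2.95-fold, adjusted p = 0.00141; gene at 12:111442469-111455018) was the highest of the 39. *Ier3*, an immediate-early gene linked to stress and survival signalling, was at 622, 852 and 380 CPM in iASPP-KO and 277, 444 and 172 CPM in iASPP-WT. Its within-batch differences were close to each other at 1.17, 0.94 and 1.14, and its log2 fold change was 1.08 (standard error 0.11, 2.12-fold, adjusted p = 0.00122; gene at 17:35821684-35822923). It had the highest level per length of the members in both groups, 546 ± 208 CPM per kb in iASPP-KO and 263 ± 121 in iASPP-WT. *Irf1*, a transcription factor of the interferon response, was at 16.1, 25.6 and 24.5 CPM in iASPP-KO and 8.61, 11.8 and 14.4 CPM in iASPP-WT. All iASPP-KO cultures were above all iASPP-WT cultures. Its log2 fold change was 0.92 (standard error 0.18, 1.90-fold, adjusted p = 0.0229; gene at 11:53770014-53778374), and the call was lost without batch 1 (adjusted p = 0.0668) or batch 2 (0.163). *Sod2*, the mitochondrial superoxide dismutase, was at 118, 142 and 117 CPM in iASPP-KO and 94.6, 115 and 100.5 CPM in iASPP-WT (0.28, standard error 0.11, adjusted p = 0.226), with groups that did not overlap. *Cflar*, which encodes the caspase-8 regulator c-FLIP, had a log2 fold change of 0.15 (adjusted p = 0.656).

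**Figure D3:**
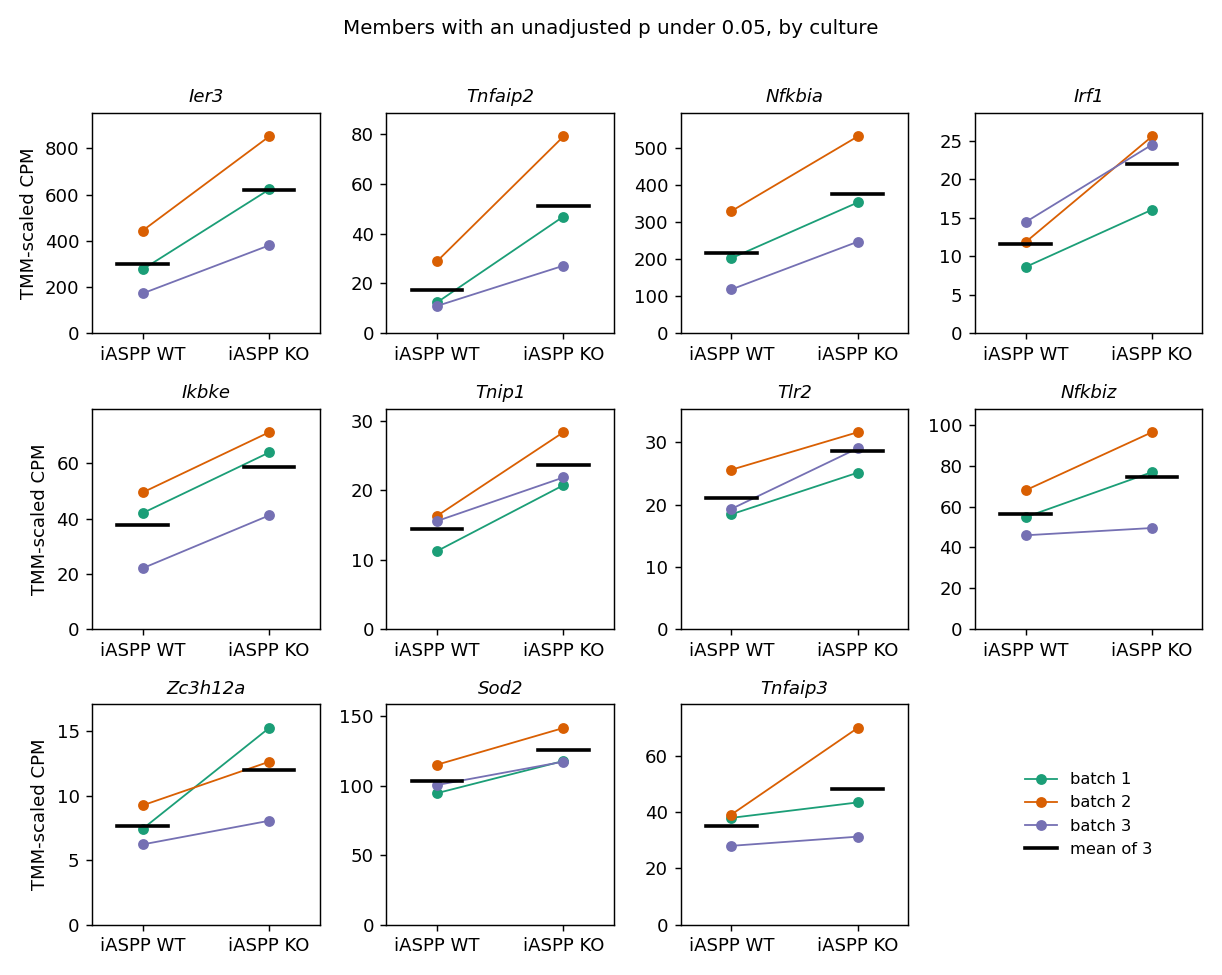
CPM of the 11 genes with an unadjusted p under 0.05, iASPP-WT beside iASPP-KO in each panel, with a line for each batch and a bar for the mean of 3 cultures. All lines rise from iASPP-WT to iASPP-KO. *Ier3* and *Tnfaip2* rise steeply in each batch, whereas *Nfkbiz* and *Tnfaip3* rise by only 0.11 and 0.16 on the log2 scale in batch 3.

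Leaving out a batch changed which members passed. *Ier3*, *Nfkbia* and *Tnfaip2* passed whichever batch was left out. With batch 3 left out, 8 members passed: the 5 above and *Tnip1*, *Nfkbiz* and *Tnfaip3*. Calls rose over all genes as well, with 793 of 15261 tested genes higher in that fit against 323 of 14916 with all batches. The leukocyte marker sum was also higher in iASPP-KO, by 0.56, 0.30 and 0.35 on the log2 scale within batches 1, 2 and 3. Its genes did not move as one, and its part in the result was not tested.

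Some members differed between batches in direction, and these were picked after their values were seen. *Nfkb2*, *Relb*, *Nfkbie* and *Icam1* were below 0 within batches 1 and 2 and above 0.8 within batch 3, which is 4 of 39 members against 2.04% of all tested genes. The pattern and its limit of 0.8 were drawn from these same values. The comparison therefore cannot show an excess among the members. *Nfkb2*, which encodes p100 and p52 of the non-canonical branch, was at 47.3, 50.9 and 72.4 CPM in iASPP-KO and 73.4, 55.6 and 39.4 CPM in iASPP-WT. *Relb*, the partner of p52, was at 17.6, 16.2 and 34.8 CPM in iASPP-KO and 21.7, 23.0 and 18.0 CPM in iASPP-WT. The iASPP-KO culture of batch 3 was the highest of the 6 for *Relb* and second to the iASPP-WT culture of batch 1 for *Nfkb2*. *Nfkbie*, which encodes IκBε, was at 1.91, 1.48 and 2.38 CPM in iASPP-KO and 3.84, 3.60 and 1.16 CPM in iASPP-WT, 26 to 88 counts per library. *Icam1*, an adhesion molecule for leukocytes, was at 118, 119 and 133 CPM in iASPP-KO and 139, 133 and 70.2 CPM in iASPP-WT. Its low point, like that of *Nfkb2*, *Nfkbie* and *Tnf*, was the iASPP-WT culture of batch 3. Over all batches the log2 fold changes were 0.03 (*Nfkb2*), 0.04 (*Relb*), −0.45 (*Nfkbie*) and 0.17 (*Icam1*), with adjusted p from 0.752 to 0.964. Without batch 3 they were negative, from −1.14 to −0.20, and the lowest adjusted p was 0.0876 (*Nfkb2*). The fibroblast marker sum was highest in batch 3, and within it lower in iASPP-KO than in iASPP-WT by 0.53 on the log2 scale. Its part in these differences was not tested.

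**Figure D4:**
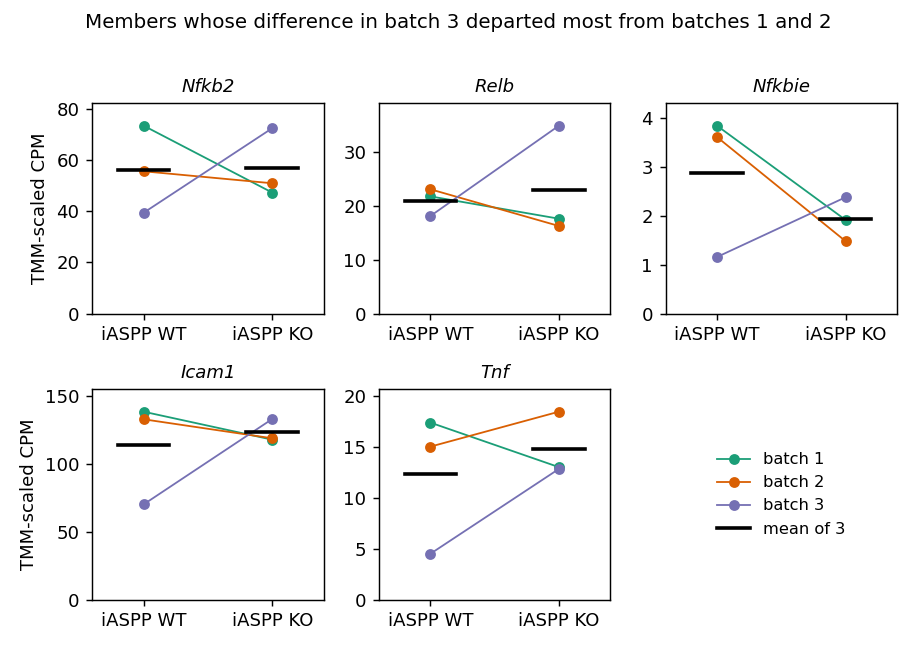
CPM of *Nfkb2*, *Relb*, *Nfkbie*, *Icam1* and *Tnf*, the 5 genes whose difference in batch 3 lay furthest above that in batches 1 and 2, with a line for each batch and a bar for the mean of 3 cultures. In each panel the batch 3 line rises from iASPP-WT to iASPP-KO, while the batch 1 and 2 lines fall, except that of *Tnf* in batch 2.

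Other genes of the pathway outside the list were compared as a set of 55 picked by name. The set was chosen with earlier results of these data known, and 52 of its genes were tested. Of these 2 were higher and 1 lower in iASPP-KO, shares near the 2.17% and 1.95% of all tested genes, and their median log2 fold change was −0.03. The 3 genes are given as single genes and not as a result about the set. *Sqstm1*, which encodes the signalling and autophagy adaptor p62, was at 1045, 1510 and 807 CPM in iASPP-KO and 645, 801 and 429 CPM in iASPP-WT (0.84, standard error 0.11, adjusted p = 0.00325). Its groups did not overlap. *Rnf11*, a ubiquitin ligase that works with A20, was at 599, 798 and 381 CPM in iASPP-KO and 357, 474 and 197 CPM in iASPP-WT (0.82, standard error 0.11, adjusted p = 0.00398). Its groups overlapped, with batch 2 highest and batch 3 lowest in both. *Il1r1*, the receptor of interleukin-1, fell, at 19.0, 8.74 and 13.5 CPM in iASPP-KO and 33.0, 20.0 and 19.8 CPM in iASPP-WT (−0.84, standard error 0.19, adjusted p = 0.0371), and every iASPP-KO culture was below every iASPP-WT culture. The *Il1r1* call was lost without batch 1 or batch 2.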

How the data were processed

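RNA from 6 cultures was sequenced, 3 of iASPP-KO and 3 of iASPP-WT, grouped by the labels. The authors trimmed reads with cutadapt 2.10, aligned them with STAR 2.7.3 to GRCm38 and deposited raw counts of reads per gene name on exons and by strand (featureCounts 2.0.0), without normalization. Exon length per gene, another deposited column, was used for CPM per kb. A deposited table of the authors' own DESeq2 comparison holds fold changes and p-values and was not used. *Map3k14* and *Ripk1* shared 2.06% and 6.12% of their exon bases with another gene of the same strand, where reads are ambiguous, and the other members 0.

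Members and lists were chosen with earlier results of these data known. Counts were filtered with filterByExpr, scaled by TMM and tested with edgeR 4.0.16 (R 4.3.3, glmQLFit and glmQLFTest), the model holding a batch and a condition term as the study's own did, with Benjamini-Hochberg adjustment over all 14916 tested genes with a threshold of 0.05. The steps were tested on simulated data. Within-batch differences are log2 CPM differences with a prior count of 2. Batch numbers pair the cultures: deviations from group means correlated at 0.302, 0.368 and 0.568 within batches and at −0.427 to 0.179 between them. The labels do not say which animals a batch held, so p-values cover the spread between these cultures. Depth was 20202517 to 25157117 counts per library, which limits genes of few counts.

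Values were given for every member past the threshold, with an unadjusted p under 0.05 and 1 direction in all batches, or not tested, and for the subunits, the IκB family, IKK genes, *Map3k14*, *Tnfaip3*, *Tnip1*, *Cyld*, *Tnf* and *Tnfrsf1a*, and other members were named after their values were seen. The alternatives were no batch term, DESeq2 1.42.0, limma-voom (limma 3.58.1), other scaling (DESeq2 size factors, upper quartile), other filters (none beyond 1 count, at least 10 counts in every library), robust dispersion and leaving out each batch. Promoter windows are RefSeq's, and their ends occurred in a GENCODE transcript of the same gene for 31 of 34 members.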

Additional observations from a re-analysis of the deposited data

How the results depend on the processing

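The cultures are paired by batch, and without the replicate block in the model 0 genes passed in either direction, members and other pathway genes included (edgeR), while 360 genes higher and 331 lower had an unadjusted p under 0.05, 4 of them members. The unblocked log2 fold changes of the called members were 0.64 to 1.55. Leaving out 1 batch in turn gave 169 to 793 genes higher and 117 to 662 lower over all genes, 3 to 8 members higher and 0 to 1 other pathway gene lower. The extremes came from leaving out batch 1 or 2 (fewest) and batch 3 (most). Without a filter beyond 1 count, 624 genes were higher and 491 lower, with 4 other pathway genes higher, and limma-voom gave 485 genes higher. In the 7 analyses that kept the block and all batches, the 5 called members passed in each, with *Tnip1* as the sixth. No called value changed sign in any of the 11 alternatives. The cause of these differences was not tested. *Bcl3*, *Nfkbie*, *Tnfrsf1b* and *Traf1* had too few counts for small changes to be seen.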
